A study of Mus musculus with 4 samples.

Results

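The data described here concern 9 chemokine ligands, Ccl2, Ccl3, Ccl4, Ccl6, Ccl7, Ccl9, Ccl12, Cxcl10 and Cxcl16, taken by symbol from the 28692 genes of the count tables. All 9 had a row in each table. Chemokines are small secreted proteins that steer leukocytes through G-protein-coupled receptors. Microglia, the resident macrophages of the brain, make several of them at rest and many more after stimulation. Ccl2, Ccl7 and Ccl12 are monocyte attractants that act through Ccr2. Ccl3 and Ccl4 are the macrophage inflammatory proteins, and Ccl3 acts on Ccr1, as do Ccl6 and Ccl9. Cxcl10 is an interferon-induced ligand of Cxcr3, and Cxcl16 is made as a membrane-bound protein that binds Cxcr6.

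The study asked how the way brain tissue is dissociated changes the transcriptomes of myeloid cells, and the 4 libraries here are the control mice of a separate experiment that it analysed alongside. Each came from 1 male C57BL/6J mouse at day 90 of age, given PBS through the tail vein 24 hours before it was killed according to the labels. Cortex and hippocampus were broken up with a cold Dounce homogenizer, and live cells that carried both CD45 and CD11b were sorted for droplet single-cell RNA-seq. There is therefore a single group, cold Dounce with PBS, of n = 4 mice (replicates 1 to 4), with no untreated or enzymatically dissociated cells beside it. Values below compare genes with each other, cells with each other and mice with each other.

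Barcodes under 400 genes or over 10% mitochondrial UMIs were dropped, which left 13002 cells, between 2576 and 3692 a library. Their summed UMIs (unique molecules counted) ran from 5841671 to 11267195 a library and their median UMIs a cell from 1905 to 2936. Since depth differed, shares of cells were also taken after each cell was thinned at random to 1000 UMIs, which kept 12737 cells. Pairs of libraries shared between 6 and 21 cell barcodes, and 162 kept cells (1.25%) had a barcode seen in another library. The microglial label held: the 9 microglial markers summed to between 36360 and 37720 CPM a library (CPM being UMIs scaled so that every library has the same total), against at most 50.8 CPM for 8 border macrophage markers and 55.3 CPM for 6 monocyte markers. Among other cell types, 5 B cell markers summed to between 339 and 373 CPM and 5 astrocyte markers to between 220 and 279 CPM. Oligodendrocyte markers reached 60.7 CPM and endothelial markers, the next, 28.6 CPM. Which cells these UMIs came from was not tested. The sort held no cell type known to lack these ligands, so the share of cells that carry a stray UMI of free RNA was not measured. Replicate 4 stood apart in immediate early genes: Fos was at 6.52, 13.4, 10.6 and 142 CPM in replicates 1 to 4, and the 15-gene list summed to 1744, 1948, 1795 and 3744 CPM. The part of this in any result below was not tested. For the last mouse of this experiment a clog interrupted sorting, so its cells were returned to ice during cleaning, were sorted again and moved between ice and room temperature. The labels do not give the order of the sort, so this mouse was tied to none of the libraries here. The paper reports its signature of ex vivo activation, with Fos, Ccl3 and Ccl4 among its genes, almost only in the cells of that mouse. Whether that mouse is replicate 4 was not tested.

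All but 1 of the 9 genes lie on mouse chromosome 11 (GRCm38, gene bodies from the GENCODE M21 annotation). Ccl2 (chr11:82035571-82037453), Ccl7 (chr11:82045712-82047525) and Ccl12 (chr11:82101845-82103400) follow each other on the plus strand. Ccl9 (chr11:83572919-83578636) and Ccl6 (chr11:83587882-83593087) lie on the minus strand 9.25 kb apart, and Ccl3 (chr11:83647844-83649355, minus) and Ccl4 (chr11:83662584-83664683, plus) are 13.2 kb apart. Cxcl16 lies elsewhere on the chromosome (chr11:70453983-70459984, minus), and Cxcl10 is on chromosome 5 (chr5:92346638-92348889, minus). Ccl2, Ccl6, Cxcl10 and Cxcl16 each overlap an annotated gene on the opposite strand (Gm17268, E230016K23Rik, Art3 and Zmynd15).

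The 250 bases before the RefSeq start site (GRCm38.p6, 5′ to 3′ on the gene's strand) are shown for Cxcl10, Ccl12 and Ccl3, because the results below turn on which cells carried these ligands. Capitals mark matches, on either strand, to the interferon-stimulated response element core (GAAA, any 2 bases, GAAA), the kappaB motif and the AP-1 motif (TGANTCA), which bind interferon-activated factors, NF-kappaB and Fos or Jun dimers.
Cxcl10: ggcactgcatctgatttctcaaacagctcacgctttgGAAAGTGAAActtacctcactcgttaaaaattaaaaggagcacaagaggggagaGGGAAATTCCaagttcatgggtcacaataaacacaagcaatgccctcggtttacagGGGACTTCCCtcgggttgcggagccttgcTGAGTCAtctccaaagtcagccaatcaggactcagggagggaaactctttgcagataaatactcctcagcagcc
Ccl12: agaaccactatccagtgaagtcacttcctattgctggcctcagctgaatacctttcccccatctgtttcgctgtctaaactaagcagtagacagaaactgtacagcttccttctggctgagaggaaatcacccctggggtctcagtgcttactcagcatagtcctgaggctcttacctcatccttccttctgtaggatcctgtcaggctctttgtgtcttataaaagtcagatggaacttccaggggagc
Ccl3: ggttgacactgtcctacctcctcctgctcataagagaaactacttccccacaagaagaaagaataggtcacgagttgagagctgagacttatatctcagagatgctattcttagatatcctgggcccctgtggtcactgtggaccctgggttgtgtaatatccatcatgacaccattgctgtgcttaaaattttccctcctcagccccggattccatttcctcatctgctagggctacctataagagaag
The Cxcl10 window (chr5:92348890-92349139, minus) held all 3 motifs: the interferon element at -213 to -204 from the start site, kappaB matches at -159 to -150 and -103 to -94, and an AP-1 match at -74 to -68. The Ccl12 (chr11:82101595-82101844, plus) and Ccl3 (chr11:83649379-83649628, minus) windows held none of these letters. The Ccl9 window held an AP-1 match at -53 to -47 and a kappaB match at -35 to -26, and the Ccl6 window none. Of 32851 windows of the same length, 2.98% held the interferon element, 3.90% a kappaB match and 6.75% an AP-1 match.

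The 9 ligands fell into an abundant set and a scarce set. Ccl9 and Ccl6, both ligands of Ccr1, led the order, followed by Ccl12 and Cxcl16, and these 4 made up 94.0, 94.96, 85.1 and 88.2% of the summed ligand level in replicates 1 to 4. That sum was 645, 628, 829 and 838 CPM (735 ± 114, SD, n = 4), and no library stood apart in it (Dixon range ratio 0.0798, under the 95% critical value). Levels of different genes are compared as CPM of 3′ tags, which do not scale with transcript length.

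**Figure D1:**
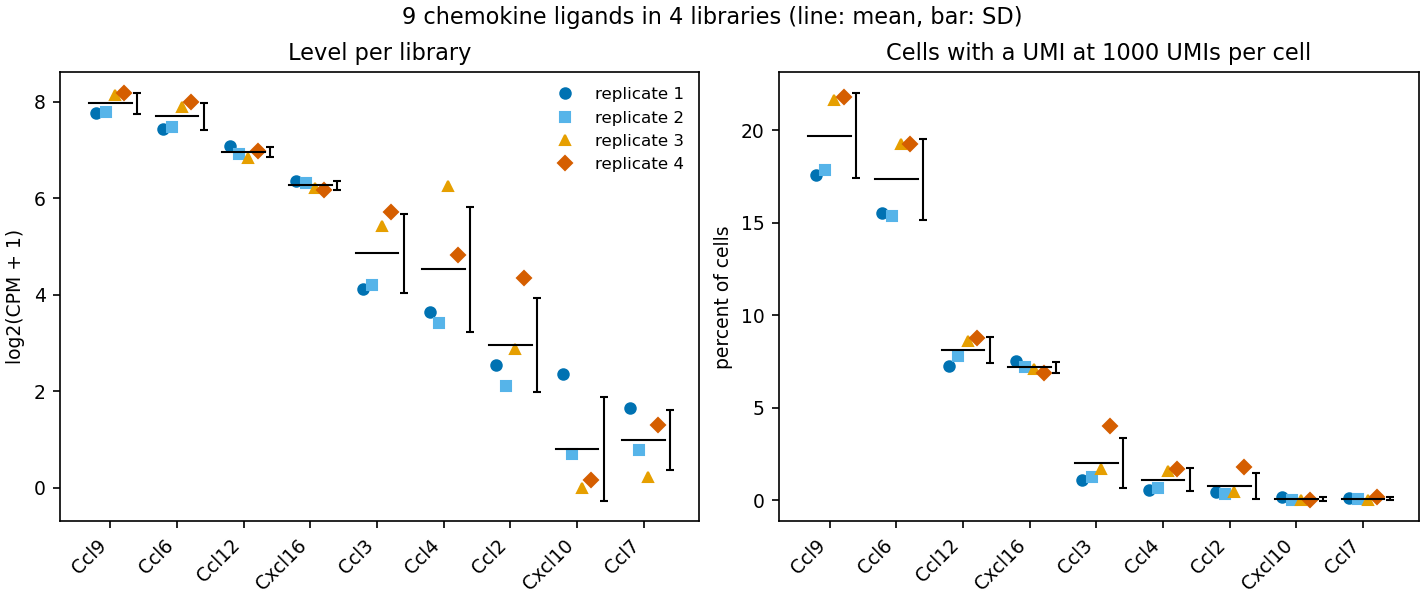
Left, level of each ligand as log2(CPM + 1), and right, percent of cells with a UMI at 1000 UMIs a cell, with 1 point a library, a line at the mean and a bar of 1 SD (n = 4). Ccl9, Ccl6, Ccl12 and Cxcl16 sit close together over libraries, at 71.2 to 288 CPM, while Ccl3, Ccl4, Ccl2, Cxcl10 and Ccl7 spread over several fold.

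Ccl9 was at 218, 220, 282 and 288 CPM in replicates 1 to 4 (252 ± 38.5). Ccl6 was at 172, 178, 237 and 254 CPM (210.2 ± 41.4), below Ccl9 in 4 of 4 libraries, although the ranges of these neighbours overlapped (exact sign-flip test on the 4 libraries, two-sided p = 0.125, the smallest that 4 pairs can give). Replicates 3 and 4 were higher than replicates 1 and 2 in both genes. Ccl12 was at 136, 120, 113 and 126 CPM (124 ± 9.54) and Cxcl16 at 81.1, 78.8, 73.1 and 71.2 CPM (76.05 ± 4.65). The steps from Ccl6 to Ccl12, from Ccl12 to Cxcl16 and from Cxcl16 to Ccl3 had no overlap between libraries.

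Among the inflammatory ligands, Ccl3 was at 16.3, 17.5, 41.8 and 51.3 CPM in replicates 1 to 4 (31.7 ± 17.6). Ccl4 was at 11.5, 9.59, 74.98 and 27.1 CPM (30.8 ± 30.5), and replicate 3 alone held 438 of its 871 UMIs. Replicates 3 and 4 were the higher libraries for both genes, in opposite order, and the ranges of these neighbours overlapped. Ccl2 was at 4.82, 3.28, 6.33 and 19.3 CPM (8.44 ± 7.37), so replicate 4 was more than 2-fold above each of the others. Ccl2 overlapped with Ccl4 above it and with Cxcl10 below it. Cxcl10 was at 4.11, 0.621, 0 and 0.111 CPM, and 29 of its 37 UMIs came from replicate 1. No UMI among 5841671 in replicate 3 allows up to 0.514 CPM (3 UMIs, counting error only). Ccl7 was at 2.13, 0.710, 0.171 and 1.44 CPM, from 15, 8, 1 and 13 UMIs, and its range lay inside that of Cxcl10.

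Of the 9 ligands, 6 reached a mean of 10 CPM (Ccl3, Ccl4, Ccl6, Ccl9, Ccl12 and Cxcl16). Ccl3 and Ccl4 had a highest library at least 2-fold above the lowest, 2 of 6, where 64 of all 7656 genes at that level (0.836%) had such a range. No ligand of the 6 had a single library apart from the other 3 by the Dixon range test on log2(CPM + 1), against 354 of 7656 genes (4.62%). Without the 10 cells highest in each ligand, Ccl4 was at 4.39, 4.70, 9.59 and 16.8 CPM, below the 10 CPM mean, and 1 of 5 ligands kept a 2-fold range, against 0.812% of all genes. Ccl3 was then at 9.07, 12.96, 13.2 and 44.9 CPM. With no filter on level, 5 of 9 ligands had a 2-fold range, against 2.45% of 15581 genes.

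Ccl9 and Ccl6 were found in many cells. In cells thinned to 1000 UMIs, 17.6, 17.8, 21.6 and 21.8% carried Ccl9 and 15.5, 15.4, 19.2 and 19.2% carried Ccl6. Ccl12 was in 7.27, 7.82, 8.63 and 8.79% and Cxcl16 in 7.55, 7.20, 7.11 and 6.88%, so Ccl12, the more abundant gene in CPM, was in no larger a share of cells in replicate 1. Ccl3 was in 1.09, 1.25, 1.69 and 3.99% (95% Clopper-Pearson interval 3.33 to 4.74% in replicate 4), Ccl4 in 0.544, 0.654, 1.61 and 1.69%, and Ccl2 in 0.458, 0.327, 0.442 and 1.82% (1.38 to 2.35% in replicate 4). The intervals of replicate 4 lay above those of the other libraries for Ccl3 and Ccl2. Without thinning the shares were 28.8 to 44.4% for Ccl9, 2.07 to 8.64% for Ccl3 and 0.531 to 3.42% for Ccl2. At least 1 of the 9 ligands was seen in 40.5, 40.8, 47.1 and 49.97% of thinned cells.

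**Figure D2:**
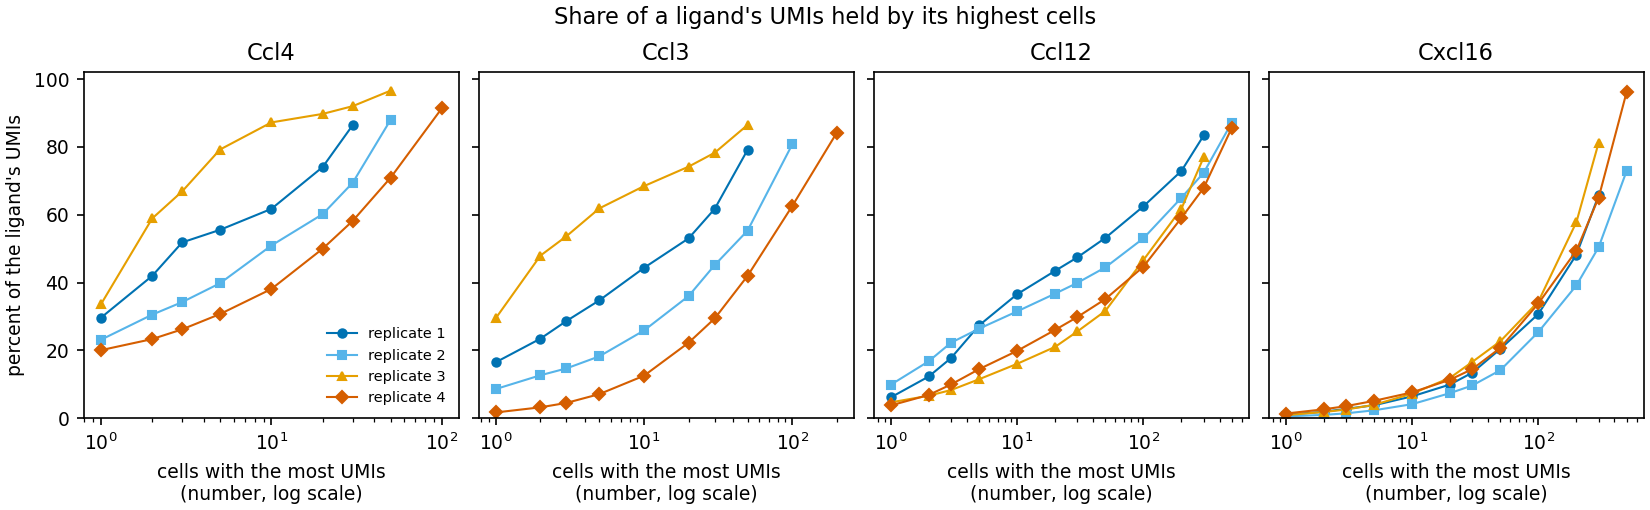
Percent of the UMIs of Ccl4, Ccl3, Ccl12 and Cxcl16 (y axis) held by the cells with the most of them (x axis, number of cells, log scale), 1 line a library. In replicate 3 the 10 highest cells held 87.2% of Ccl4 UMIs and 7.26% of Cxcl16 UMIs.

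Ccl4 and Ccl12 were unevenly spread over cells in every mouse. The variance of a ligand's UMIs over cells divided by its mean is 1 for counts spread evenly, and at 1000 UMIs a cell it was 3.81, 2.77, 26.8 and 4.73 for Ccl4 and 9.72, 9.37, 2.60 and 2.85 for Ccl12. These were the 2 of 7 ligands with enough UMIs that reached 1.5 in each library, as did 22 of 8283 genes (0.266%). For Ccl3 the ratio was 1.77, 1.36, 11.8 and 1.47, so only replicates 1 and 3 passed 1.5. It stayed at 1.10 to 1.25 for Ccl6, 1.23 to 1.33 for Ccl9 and 1.01 to 1.10 for Cxcl16. The same 5 of 7 ligands (Ccl2, Ccl3, Ccl4, Ccl9 and Ccl12) passed without thinning, against 1.67% of 9819 genes, and with cells thinned to 2000 UMIs, against 0.538% of 8920 genes.

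The 10 highest cells of each library held 61.7, 50.9, 87.2 and 38.1% of Ccl4 UMIs in replicates 1 to 4. For Ccl12 they held 36.6, 31.5, 16.1 and 19.9%, and for Cxcl16 between 4.17 and 7.64%. For Ccl3 they held 44.3, 25.9, 68.4 and 12.6%, so replicates 3 and 4, the libraries highest in Ccl3, were the most and the least concentrated. In replicate 3 a single cell of 2812 UMIs carried 72 Ccl3 and 147 Ccl4 UMIs and the next carried 45 and 111, with 1 Ccl12 UMI each. In replicate 4 the highest cell carried 8 Ccl3 UMIs, and the gene was instead seen in 123 thinned cells against 38, 46 and 42 in the other libraries. Cells with exactly 1 thinned UMI of Ccl3 and Ccl4 together numbered 48, 59, 62 and 133, and cells with 5 or more numbered 3, 2, 7 and 2.

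The 14 cells with 5 or more thinned UMIs of Ccl3 and Ccl4 together were a range of a count and no cell type, and none had exactly 5 while 4 cells had 4. Replicate 3 held 7 of them. Of the 14, 5 (35.7%) also carried Ccl2, as did 0.707% of the remaining cells, and these were 2 of 3 in replicate 1 and 3 of 7 in replicate 3. Ccl12 was in 3 of the 14 (21.4%), against 8.05% of the rest, and Ccl9 in 1. No such cell of replicates 2 and 4 carried Ccl2.

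Which ligands shared cells was read first from counts of cells with both. Ccl3 and Ccl4 occurred together in 25 thinned cells where their separate shares within each library give 3.26, with 4, 3, 7 and 11 cells in replicates 1 to 4 against 0.207, 0.301, 0.674 and 2.08. Ccl2 and Ccl12 occurred together in 28 cells against 7.97, and in 7, 3, 4 and 14 cells by library against 1.16, 0.939, 0.949 and 4.92. Both pairs were above the product of their shares in 4 of 4 libraries. Ccl2 and Ccl3 met in 13 cells against 2.74, and Ccl2 and Ccl4 in 8 against 1.29, each above it in 3 of 4 libraries, with no such cell in replicate 2. Cells with all of Ccl2, Ccl3 and Ccl4 numbered 3, 0, 3 and 2.

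**Figure D3:**
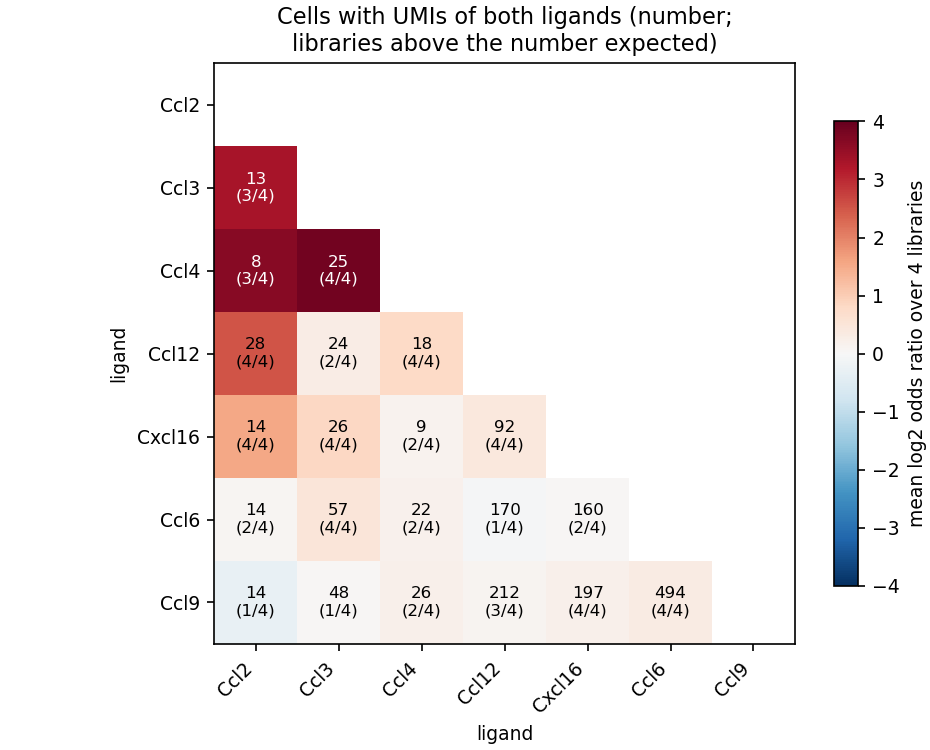
Mean log2 odds ratio over 4 libraries (colour) for each pair of 7 ligands in cells thinned to 1000 UMIs, with the number of cells that held both and, in parentheses, the libraries above the product of the shares. Ccl3 with Ccl4 is darkest (25 cells, 4 of 4), Ccl2 with Ccl12 rests on 28 cells (4 of 4) and Ccl2 with Ccl3 or Ccl4 on 13 and 8 (3 of 4), while the 494 cells with Ccl6 and Ccl9 give a value near 0.

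The abundant ligands met close to what their shares give. Ccl6 and Ccl9 occurred together in 494 cells against 429, Ccl9 and Cxcl16 in 197 against 178, and Ccl12 and Cxcl16 in 92 against 73.8, each above it in 4 of 4 libraries. Ccl6 and Ccl12 met in 170 cells against 177, above it in 1 of 4. Cxcl10 was in too few cells for a ratio, but 6 of its cells also held Ccl12 where 0.675 were given by the shares.

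Co-expression was then tested on sums per library, with 1 library a mouse. For each ligand with at least 20 positive cells in every library (Ccl3, Ccl6, Ccl9, Ccl12 and Cxcl16), the counts of positive and of negative cells were summed per library and compared by edgeR's quasi-likelihood test with the library as a block, over 8282 genes each. Genes with a Benjamini-Hochberg adjusted p under 0.05 and a log2 fold change over 0.58 were called. The ± beside each log2 fold change is an SE derived from the statistic of the fit, not the SD of the fold between mice. Where the folds of the libraries differ widely, as for Cd74 by Cxcl16 and Ccl12 by Ccl2, the SE is narrower than that spread. The p-value does not measure that spread either, and the values per library show it. Ccl4 and Ccl2 were too rare for this rule, and were fitted with at least 10 positive cells a library, a choice made after seeing the data.

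Taken as a sum, Ccl3-positive cells carried far more Ccl4. Ccl4 was at 501, 196, 2553 and 236 CPM in them, and at 4.34, 7.45, 23.7 and 18.2 CPM in the other cells of replicates 1 to 4, with no overlap (log2 fold change 5.46 ± 0.25, SE, adjusted p = 2.85e-103, edgeR). The call held in 14 of 14 alternative settings. Most Ccl3-positive cells held no Ccl4: it was seen in 4 of 38, 3 of 46, 7 of 42 and 11 of 123 of them. Its UMIs in them were 19, 9, 107 and 29. Ccl2 was at 132, 0, 191 and 73.3 CPM in Ccl3-positive cells and at 4.92, 3.31, 4.08 and 19.6 CPM in the rest, higher in 3 of 4 mice (3.07 ± 0.53, adjusted p = 3.2e-05, edgeR). Without replicate 3 that call was lost (2.38, adjusted p = 0.354). Ccl12 was at 738, 109, 71.6 and 236 CPM against 127, 132, 114 and 111 CPM, so only replicates 1 and 4 were higher. It passed the test (1.01 ± 0.22, adjusted p = 0.00621, edgeR) but was lost under 6 of 14 alternatives, among them the fits without replicate 1 (0.47, adjusted p = 0.998), without replicate 4 (1.01, adjusted p = 0.126) and by DESeq2 (0.75, adjusted p = 0.99985). These 3 ligands were among 5 of 8282 genes (0.0604%) higher in Ccl3-positive cells. The other 2, Lpl, a lipoprotein lipase, and Lgals3, a galactose-binding lectin, were higher in 3 of 4 libraries. Their UMIs in Ccl3-positive cells were few, 2, 13, 1 and 0 for Lpl and 0, 7, 4 and 2 for Lgals3. The median of all genes in this fit was -0.16, and -0.03 when libraries were scaled by their totals, so each change is read against that shift.

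In the added fit of Ccl4-positive cells, 5 of 8282 genes (0.0604%) were higher. Ccl3 was at 580, 292, 1381 and 308 CPM in them against 10.1, 12.6, 15.5 and 42.9 CPM (4.64 ± 0.32, adjusted p = 1.97e-44, edgeR). Its UMIs in Ccl4-positive cells were 11, 7, 55 and 16. Cd83, a surface protein of activated myeloid cells and an NF-kappaB target, was also higher in all 4 libraries (1.37 ± 0.29, adjusted p = 0.00276, edgeR). Lpl and Ccl2 were called here with 3 of 4 libraries higher, and Ccl12 with 2 of 4. Another 7 genes (0.0845%) were called lower. The median of all genes in this fit was -0.33, and with libraries scaled by their totals it was -0.06, with 8 genes called higher and 3 lower.

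Ccl12-positive cells were marked by interferon-stimulated genes. Ifit3, an antiviral interferon-induced protein, was at 122, 119, 51.2 and 48.0 CPM in them and at 7.41, 6.21, 8.35 and 4.27 CPM in the rest (3.76 ± 0.26, adjusted p = 1.19e-27, edgeR). Isg15, a ubiquitin-like protein, rose by 2.50 ± 0.23 and Ifi204, a member of the interferon-inducible p200 family, by 2.41 ± 0.34 on the log2 scale, each in 4 of 4 libraries. Ly6a, a surface antigen also induced by interferon, rose by 1.40 ± 0.35, a call that held in 5 of 13 alternatives (highest adjusted p 0.9996), where those of Isg15, Ifi204 and Ifit3 held in each alternative that tested them. Of the 19 listed interferon-stimulated genes, 10 were tested and 7 were higher in Ccl12-positive cells (among them Ifi204, Isg15, Ifitm3, Slfn2, Rtp4 and Ifit3), with a list median of 0.999 beside 0.00049 over all genes. By DESeq2 the number was 4. The list made up 0.139, 0.0871, 0.0726 and 0.0557% of UMIs in Ccl12-positive cells of replicates 1 to 4, and 0.0442, 0.0369, 0.0367 and 0.0391% in the rest.

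**Figure D4:**
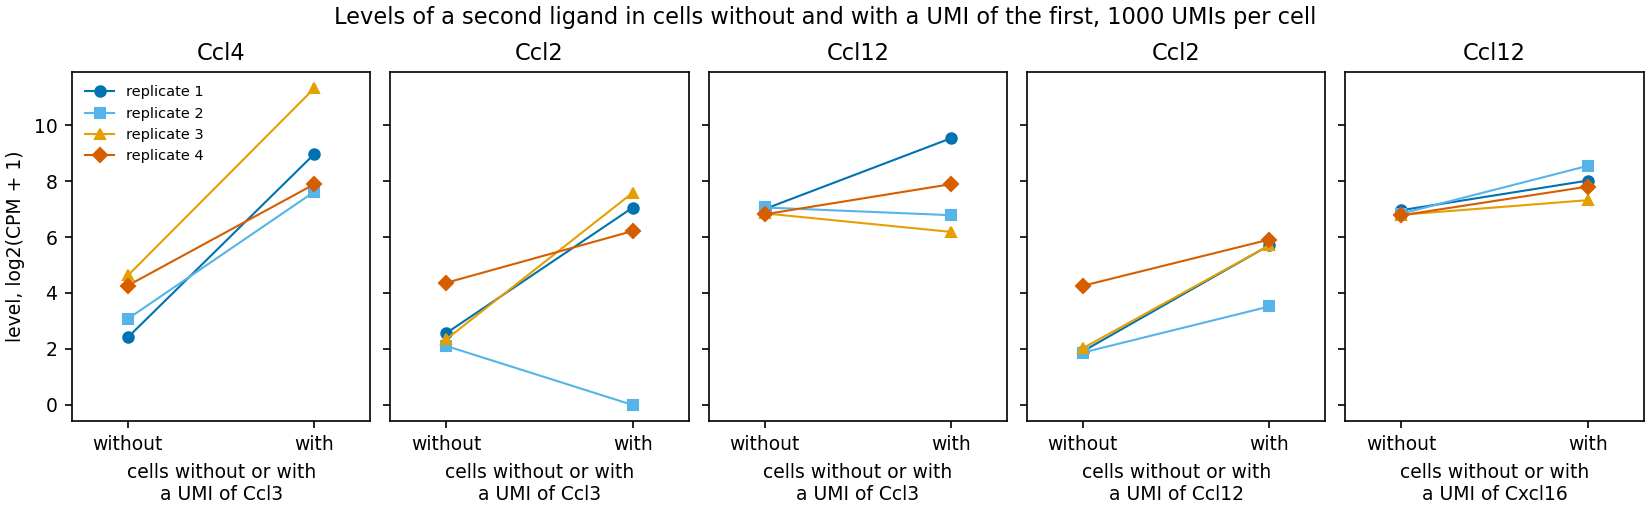
Level of a ligand, as log2(CPM + 1), in cells without and with a UMI of another ligand at 1000 UMIs a cell, 1 line a library. Lines rise in each of the 4 libraries for Ccl4 by Ccl3, Ccl2 by Ccl12 and Ccl12 by Cxcl16, in 3 for Ccl2 by Ccl3 and in 2 for Ccl12 by Ccl3.

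Of the ligands, Ccl2 was called in Ccl12-positive cells, where it was at 51.3, 10.5, 51.2 and 59.1 CPM against 2.78, 2.66, 3.08 and 18.1 CPM (2.66 ± 0.35, adjusted p = 5.26e-09, edgeR). All 4 libraries were higher. The call held in 11 of 12 alternatives, and without the library block the same size (2.68) missed the threshold (adjusted p = 0.179). The UMIs behind it were few, 13, 3, 11 and 16 in positive cells. It was among 15 of 8282 genes (0.181%) called higher. Ccl4 was at 19.7, 6.98, 65.2 and 99.8 CPM in Ccl12-positive cells against 8.95, 10.1, 66.3 and 19.9 CPM, and did not pass (0.96 ± 0.27, adjusted p = 0.147, edgeR). It was called higher under 5 of 14 alternatives, among them the fits without replicate 2 (1.09, adjusted p = 0.036) and without replicate 3 (1.66, adjusted p = 0.000786), and was at 0.13 without replicate 4.

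In the added fit of Ccl2-positive cells, of which there were 16, 12, 11 and 56, Ccl12 was at 5132, 4421, 2003 and 375 CPM against 110, 118, 105 and 111 CPM (3.74 ± 0.27, adjusted p = 1.83e-38, edgeR). Ifit3 (4.41 ± 0.48) and Ifi204 (3.29 ± 0.63) were the other genes called higher with 4 of 4 libraries higher, and 8 of 8282 genes (0.0966%) were called higher. UMIs in Ccl2-positive cells were few, 12, 9, 2 and 2 for Ifit3 and 4, 2, 3 and 2 for Ifi204 in replicates 1 to 4. Another 12 (0.145%) were called lower. The median of all genes in this fit was -0.51, and with libraries scaled by their totals it was -0.06, with 12 genes called higher, the 8 among them, and 0 lower. Replicate 4 differed from the rest in these cells. Interferon-stimulated genes took 0.513, 0.350, 0.309 and 0.0536% of UMIs in Ccl2-positive cells of replicates 1 to 4, against 0.0490, 0.0398, 0.0386 and 0.0403% in the others.

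Cxcl16-positive cells carried more MHC class II genes. Cd74, the class II invariant chain, was at 216, 216, 554 and 3480 CPM in them against 145, 88.1, 108 and 289 CPM (2.46 ± 0.12, adjusted p = 4.99e-50, edgeR), with the largest gap in replicate 4. H2-Eb1 (2.77 ± 0.17), H2-Aa (2.64 ± 0.15) and H2-Ab1 (2.36 ± 0.14), which encode class II chains, and Lpl (2.16 ± 0.39) were also higher in 4 of 4 libraries. Ccl12 was the 1 ligand called, at 258, 372, 158 and 222 CPM against 123, 113, 110 and 108 CPM (1.203 ± 0.12, adjusted p = 2.48e-17, edgeR), and this held in 14 of 14 alternatives. Ccl12 UMIs in Cxcl16-positive cells were 68, 98, 28 and 47, and cells with both ligands numbered 26, 25, 20 and 21. In the reverse fit, Cxcl16 was not called in Ccl12-positive cells (0.39, adjusted p = 0.712, edgeR), nor in any of 14 alternatives. In all, 8 of 8282 genes (0.0966%) were called higher. By DESeq2 only 2 were called, Ccl12 and 1 gene of the disease-associated list, and so none of the class II genes. The calls of Cd74, H2-Aa and H2-Ab1 held in 12 of 14 alternatives and that of H2-Eb1 in 12 of 13. When only cells of microglia-like clusters were used, Lpl and Ccl12 remained called, while Cd74, H2-Aa and H2-Ab1 were not called and H2-Eb1 fell below the filter.

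Ccl6-positive cells carried more Lyz2, the macrophage lysozyme, at 905, 573, 543 and 788 CPM against 499, 473, 281 and 516 CPM (0.67 ± 0.05, adjusted p = 2.26e-43, edgeR). Plac8 (2.12 ± 0.30), a marker on the monocyte list, Lgals3 (1.58 ± 0.31), Ifitm2 (1.202 ± 0.28) and Ifitm3 (0.85 ± 0.15) were also higher in 4 of 4 libraries, among 6 of 8282 genes (0.0724%). In microglia-like clusters alone none of the 6 was called: Lyz2 was at 0.15 and Ifitm3 at 0.02, and Plac8, Lgals3 and Ifitm2 fell below the filter. No ligand was called higher (edgeR, with 1 of 6 at an unadjusted p under 0.05, and 0 by DESeq2).

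Ccl9-positive cells had 2 genes called higher of 8282 (0.0241%), Ifit3 and Ifitm3, each in 3 of 4 libraries. Ifit3 was called in 8 of 14 alternatives and Ifitm3 in 5 of 14. In microglia-like clusters alone Ifit3 remained called (1.18), while Ifitm3 was not (0.29, adjusted p = 0.953, edgeR). No ligand was called higher in Ccl9-positive cells either (edgeR, with 2 of 6 at an unadjusted p under 0.05 and 0 by DESeq2). Ccl4 was among 2 genes (0.0241%) called lower in them (-0.97 ± 0.24, adjusted p = 0.0324, edgeR), with 1 library higher. The direction of Ccl4 turned with the thinning, since it was called higher with counts not thinned (1.29, adjusted p = 8.81e-10) and was at 0.30 with cells thinned to 2000 UMIs. The lower call was also lost by DESeq2 (adjusted p = 0.9998), with no library block (0.99998), in cells with at least 1000 genes (0.108), and without replicate 3 (-0.47, adjusted p = 0.9901) or replicate 4 (-0.95, adjusted p = 0.358). Ccl6 in Ccl9-positive cells was at 210, 225, 297 and 258 CPM against 169, 169, 215 and 228 CPM, higher in each mouse and past the p threshold but short of the fold (0.35 ± 0.07, adjusted p = 0.00147, edgeR). In the reverse fit Ccl9 gave 0.30 ± 0.07 (adjusted p = 0.0057). A ligand pair here is a second ligand tested in cells positive for a first, so fitted ligands are counted each way round. Over the 5 fits, 5 of 30 such pairs were called higher, against 36 of all 41410 gene tests (0.0869%). Of the 5, Ccl12 by Ccl3 and Ccl12 by Cxcl16 were not called the other way round. Ccl3 in Ccl12-positive cells was at 0.35 (adjusted p = 0.995, edgeR) and Cxcl16 at 0.39 (adjusted p = 0.712). Leaving out replicate 1 left 2 called of 25 pairs, leaving out replicate 4 left 3 of 25, and without the library block there were 3 of 30. Counts of all genes called moved too. For Ccl12-positive cells the count was 5, 10, 12 and 11 without replicates 1 to 4 in turn, and for Ccl9-positive cells 0, 0, 4 and 3. For Ccl3-positive cells it was 2, 4, 2 and 2, for Ccl6-positive cells 2, 4, 3 and 3, and for Cxcl16-positive cells 7, 7, 6 and 5.

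Cells were next clustered with every chemokine ligand left out of the genes used, and ligand levels by cluster are a description. Of 7 clusters at resolution 0.5, 6 were microglia-like and 1 of 108 cells (0.831%) was unnamed, led by class II genes, Pf4 and Plac8, with all 8 border macrophage markers and 3 monocyte markers detected in at least 10% of its cells. Cxcl10, Ccl4 and Ccl12 gathered in a microglia-like cluster of 766 cells (5.89%) led by Ifi204, Isg15 and Rtp4, and also by Cst7 and Apoe. It held 86.5% of Cxcl10, 53.2% of Ccl4 and 27.7% of Ccl12 UMIs. Without replicate 3, whose pair of cells with 147 and 111 Ccl4 UMIs lay in it, it held 33.7% of Ccl4 UMIs.

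**Figure D5:**
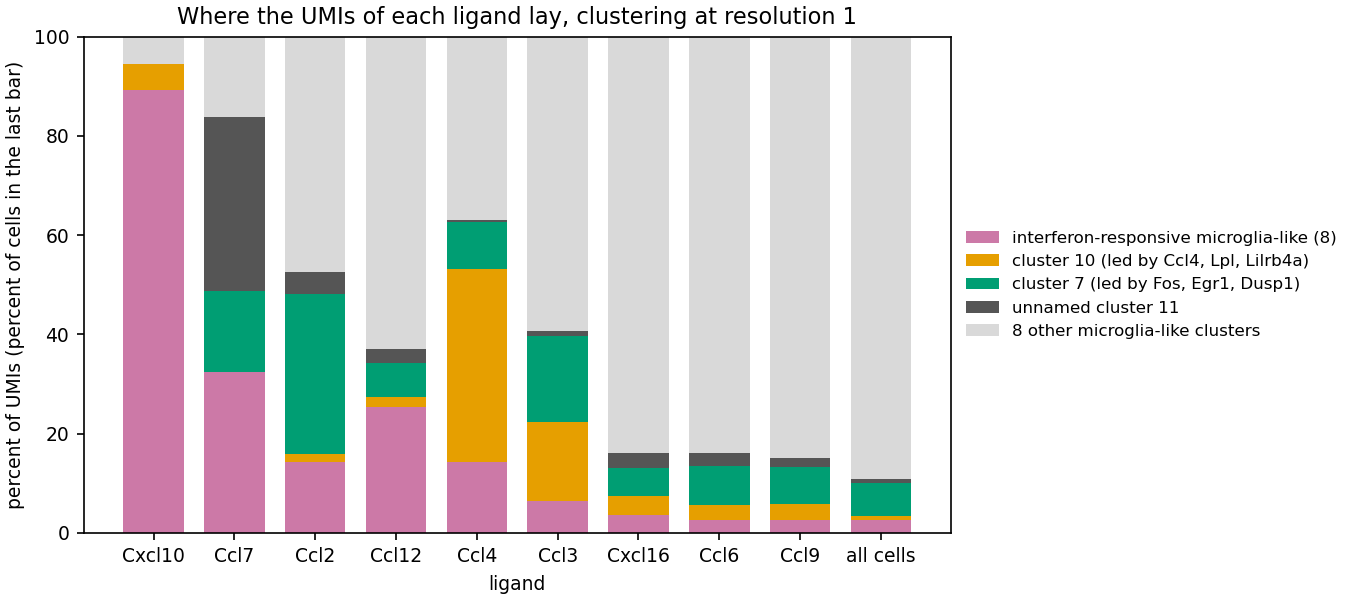
Percent of each ligand's UMIs (y axis) found in the named clusters at resolution 1, with the percent of all cells as the last bar. The interferon-responsive cluster, 2.55% of cells, holds 89.2% of Cxcl10 and 25.3% of Ccl12 UMIs, and cluster 10, 0.946% of cells, holds 38.9% of Ccl4 UMIs.

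At resolution 1 this group came apart. An interferon-responsive microglia-like cluster of 331 cells (2.55%), led by Ifit3b, Ifit3 and Ifit1, held 89.2% of Cxcl10, 32.4% of Ccl7, 25.3% of Ccl12 and 14.2% each of Ccl2 and Ccl4 UMIs. Several of these shares rested on 1 library. For Ccl4 the share was 2.77% without replicate 3, and 111 of the 124 UMIs were in a single cell. For Ccl7 it was 1 of 22 UMIs without replicate 1 and 12 of 24 without replicate 4, and for Ccl2 it was 8.87% without replicate 1 and 29.6% without replicate 4. A separate microglia-like cluster of 123 cells (0.946%), whose leading genes included Lpl, Lgals3, Axl and Cst7 beside Ccl4 and Ccl3, held 38.9% of Ccl4 and 15.9% of Ccl3 UMIs, or 30.7 and 10.2% without replicate 3. Ccl4 in it was at 205, 297, 2958 and 448 CPM in replicates 1 to 4. The unnamed cluster held 35.1% of Ccl7 UMIs. Ccl12 was also the first leading gene of a microglia-like cluster of 183 cells (1.41%), followed by Aig1 and Pros1. That cluster held 1.78% of Ccl12 UMIs, at 236, 1028, 191 and 145 CPM in replicates 1 to 4. Its median was 1056 UMIs a cell, against 2432 over all cells.

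The 5 cells highest in Cxcl10 all lay in the interferon-responsive cluster and carried 52, 74, 59, 25 and 59 Ccl12 UMIs. The highest, in replicate 1, held 14 Cxcl10, 52 Ccl12, 4 Ccl7 and 2 Ccl2 UMIs among 1426, and so 14 of that library's 29 Cxcl10 UMIs. The 5 cells highest in Ccl12, from replicates 1 and 2, carried 134, 94, 74, 59 and 59 of its UMIs and were in the same cluster, with 0, 0, 7, 2 and 5 Cxcl10 UMIs. Of the 5 highest Ccl7 cells, 3 were in it, and the other 2 were in the unnamed cluster with 24 and 37 UMIs of border macrophage markers.

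Ccl2-positive cells were placed differently in replicate 4. In replicates 1 to 3, 8 of 16, 4 of 12 and 3 of 11 of them lay in the resolution 0.5 cluster led by interferon-stimulated genes, against 1 of 56 in replicate 4. That cluster held 9.76, 5.70, 4.22 and 3.54% of all thinned cells. In replicate 4, 28 of 56 lay in a cluster led by Egr1, Fos and Dusp1, which held 29.9% of all thinned cells of that library and 0.458 to 1.28% of those of the other 3. Ccl3 in replicate 4 was not limited to that cluster: in the 3 largest clusters it was at 33.2, 41.4 and 45.6 CPM there, higher in each than in any other library. With 1 library a mouse, the animal and the handling of its cells cannot be told apart.

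Other genes of the pathway were read from lists over the same 5 fits, beside the 36 of 41410 tests of all genes (0.0869%) that were called higher. Among the chemokine receptors that reached 10 CPM were Cx3cr1 (3160 ± 230), the microglial receptor for fractalkine, Ccr1 (23.6 ± 5.43), Ccrl2 (16.6 ± 2.23) and Ccr2 (10.5 ± 4.52). Ccr1 is a receptor of Ccl3, and Cxcr6, the receptor of Cxcl16, had no UMI in any library. Of the receptors tested none of 25 calls possible was higher (edgeR, with 3 at an unadjusted p under 0.05 and 0 by DESeq2). Genes of the NF-kappaB pathway gave 0 of 90 (6 and 0) and immediate early genes 0 of 65 (5 and 0). In the Ccl3 fit alone, the immediate early list had a median of 0.35, beside -0.16 over all genes. Of its 13 genes tested there, 3 were at an unadjusted p under 0.05 (edgeR). The list took 0.245, 0.189, 0.257 and 0.498% of UMIs in Ccl3-positive cells of replicates 1 to 4. In the rest it took 0.178, 0.196, 0.181 and 0.370%. In the added Ccl4 fit, 1 of 18 NF-kappaB genes was called higher, Cd83. Over the 5 fits, interferon-stimulated genes gave 10 of 50 (15 and 4), 7 of them in the Ccl12 fit. Disease-associated microglia genes gave 5 of 45 (29 and 1, Lpl and Lgals3 in the Ccl3 fit, Apoe and Lpl in the Cxcl16 fit, Lgals3 in the Ccl6 fit). With cells of microglia-like clusters alone, Lpl remained called in the Ccl3 and Cxcl16 fits. Apoe in the Cxcl16 fit was then at 0.17 (adjusted p = 0.976, edgeR), and Lgals3 was called in neither fit. Homeostatic microglia genes gave 0 of 75 (9 and 0).

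Likeness over single cells was measured as Pearson's r of log2(UMIs + 1) at 1000 UMIs, averaged over 4 libraries, and is a description since cells of a library share its depth. The gene most like Ccl3 was Ccl4 (0.319), and that most like Ccl12 was Ifit3 (0.266), followed by Isg15 (0.201) and Ifi204 (0.168). For Ccl2 the nearest were Ccl12 (0.157), Ccl3 (0.139) and Ccl4 (0.133). No gene reached 0.1 with Ccl6, Ccl9 or Cxcl16.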

How the data were processed

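Myeloid cells of 4 mouse brains were profiled with 10x Genomics 3′ v2 chemistry, and the deposited tables hold raw UMI counts per gene and cell barcode, which the authors made with Cell Ranger (2.2.0, mm10/GRCm38). The submitters' processing notes also name bcl2fastq and Seurat, with no version used here. The 9 ligands and all gene lists were chosen with earlier results of these data known.

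Barcodes under 400 genes or over 10% mitochondrial UMIs were dropped, and no doublet caller was run. Counts were summed per library and scaled to CPM. Genes with a mean of 10 CPM entered the range rules, with a pseudocount of 1 on the log2 scale. For shares, evenness and co-expression each cell was thinned to 1000 UMIs, and genes with 100 thinned UMIs in all libraries together were used. Intervals are 95% Clopper-Pearson or Poisson intervals and, with the floor of 3 UMIs, cover counting error only.

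Summed positive and negative cells of each library were fitted with edgeR (4.0.16, R 4.3.3, TMM, quasi-likelihood test), the library being a block since both sums came from 1 mouse. DESeq2 (1.42.0) was an alternative, and other scalings of the Ccl4 and Ccl2 fits were added after seeing the data. Standard errors were derived from the quasi-likelihood statistic and are not the spread of the fold between mice. The script was tested on simulated counts. Clusters were made with scanpy (1.11.5) by the Leiden method on 20 components of 2000 variable genes, 15 neighbours, at resolution 0.5, with 1 as the alternative. The name microglia-like needed 3 or more microglial markers, each in 10% or more of a cluster's cells, and leading genes of no other type.

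For each fit the text names the 5 genes with the largest log2 fold change among those called higher with all 4 libraries higher, and other called genes only where a list or a small count is described. The 3 genes most like each ligand are given where mean r was at least 0.1. Lpl and Lgals3 in the Ccl3 fit, Lpl in the Ccl4 fit, Ifit3 and Ifitm3 in the Ccl9 fit, and the single cells described were chosen after their values were seen. Promoter sequences were in the RefSeq table used for 5 of the 9 ligands. Some items are not reported here.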

Additional observations from a re-analysis of the deposited data

Results flagged for a closer look

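In 47 per-library values of the 9 ligands, 1 of the 4 libraries lay apart from the other 3 in 7, where the gap to the nearest library as a share of the whole range passed the 95% critical value of Dixon's range test. Some of the 47 could not pass it, since all libraries were equal. These were the levels of Ccl7 and Cxcl10 without the 10 highest cells, and the share of Ccl7 UMIs in its 10 highest cells. Chance passes the critical value in about 1 of 20 sets of 4, and several of the 7 measure the same thing. The cause was not tested for any of them.

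Replicate 4 was high in 4 of the 7. Its share of cells with a Ccl2 UMI was 3.42% against 0.531, 0.785 and 0.699% (ratio 0.912), and at 1000 UMIs a cell 1.82% against 0.458, 0.327 and 0.442% (0.912). Without the 10 highest cells, Ccl2 was at 14.0 CPM against 1.28, 1.69 and 1.37 (0.968), and Ccl3 at 44.9 CPM against 9.07, 12.96 and 13.2 (0.885). Replicate 4 was also the library with 142 CPM of Fos.

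Replicate 1 was high in the share of cells with a Cxcl10 UMI, at 0.252% against 0.0271, 0 and 0.0317% (ratio 0.874), and at 1000 UMIs a cell, at 0.2003% against 0.0273, 0 and 0.0324% (0.838). These rest on 9, 1, 0 and 1 cells before thinning. Interferon-stimulated genes summed to 531 CPM in replicate 1 and to 417, 409 and 428 CPM in the others.

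Replicate 3 was high in the share of cells with at least 5 thinned UMIs of Ccl3 and Ccl4 together, at 0.281% against 0.0858, 0.0545 and 0.0649% (ratio 0.862), from 7 cells against 3, 2 and 2.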

How the results depend on the processing

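The counts of genes called higher depended most on the settings. Over the 5 fits 36 genes were called with edgeR, and 10 by DESeq2, 12 with no replicate block, 140 with counts not thinned, 23 in microglia-like clusters alone, and 16 to 27 when a library was left out. Ligand pairs called higher were 5, against 3 with no replicate block, 9 with counts not thinned, 11 of 42 with the added Ccl4 and Ccl2 fits, and 2 to 6 when a library was left out. Ligands with a 2-fold range were 2, against 5 with no filter on level, 1 without each gene's 10 highest cells, and 2 to 3 when a library was left out. Ligands with uneven counts were 2, against 5 with counts not thinned, 5 when thinned to 2000 UMIs and 4 at a ratio of 1.2. Cells with at least 5 UMIs of Ccl3 and Ccl4 were 14, against 29 at 3 UMIs and 6 at 10. The summed ligand level kept between 701 and 771 CPM when a library was left out. The cause of these moves was not tested. None of the 5 pairs called higher changed direction in any alternative run, while Ccl4 in Ccl9-positive cells, called lower at -0.97, was at 1.29 with counts not thinned and at 0.30 when thinned to 2000 UMIs. The Dixon range test was not run with 3 libraries.
The library block pairs 2 sums of the same mouse. Depth limits Cxcl10 and Ccl7, at 37 UMIs each, to a description, and Ccl2 fell below the filter of 100 UMIs without replicate 1 or 4.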

Other observations

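Of 29 other chemokine ligands, 28 were found in the tables, 12 of them with no UMI, and 3 reached a mean of 10 CPM. Pf4, a platelet and macrophage chemokine, was at 3.26, 14.9, 30.3 and 36.3 CPM in replicates 1 to 4 and was among the leading genes of the unnamed cluster with border macrophage markers. It was called lower in Ccl9-positive cells (-1.66 ± 0.36, adjusted p = 0.0045, edgeR), with no library higher. Ccl24, an attractant of eosinophils, was at 15.6, 18.5, 19.2 and 13.6 CPM, and Ccl25, a thymic and gut chemokine, at 14.6, 14.8, 13.2 and 12.999 CPM, so both varied little between mice. Ccl5, a chemokine that interferon induces, was at 13.3, 4.35, 2.74 and 1.44 CPM, highest in replicate 1, as was Cxcl10.
Cxcr3, the receptor of Cxcl10, was at 1.84, 2.57, 3.94 and 3.67 CPM.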
